A study of Mus musculus with 22 samples.

Results

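The cholesterol genes described here are 7 genes placed under the transcription factor SREBP2, namely Hmgcs1, Idi1, Fdft1, Sqle, Cyp51, Insig1 and Srebf2, chosen by name among the 56691 genes that both deposited count tables list by Ensembl identifier. All 7 were found in both tables, and all 7 passed the filter on low counts in each comparison. None of the 7 is an uptake receptor, so uptake genes are described with the pathway lists. Bulk RNA sequencing covered CD11b+ cells of the brain from 20 animals in 22 libraries, with 4 animals in each of 5 groups. All animals were wildtype mice of the outbred CF-1 stock, and CD11b is an integrin chain that myeloid cells, microglia among them, carry on their surface. In the HIE groups (hypoxic-ischemic encephalopathy model), the dam had received the bacterial product LPS on E18 and the pups a short hypoxia on P6, with collection on P7 or P14.

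The controls of each day had neither hit according to the methods of the study, and the P14 group labelled hypoxia is not described there. The 4 P7 controls carry the day labels P8, P9, P10 and P11, 1 animal each, while the methods give P7. All 4 P7 HIE pups are labelled male, whereas every other group has 2 males and 2 females. Animals share name prefixes in pairs, and pairs with the same prefix are called litters here. The methods of the study do not say what the leading P4H, P6H and N of these names stand for. Each litter holds 1 treatment. The litters were P6H63 and P6H55 for the P7 controls, N5 and N8 for the P7 HIE pups, P4H4 and P6H8 for the P14 controls, P4H1 and P6H12 for the P14 HIE animals, and P6H7 and P6H9 for the P14 hypoxia animals. P7 and P14 stand in separate tables, so day and table cannot be told apart. Levels were not tested between days, and only the difference between the HIE effects on P14 and P7 was.

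Cholesterol is made in the cell from acetyl-CoA, first through the mevalonate arm, which ends in isoprenoid units, and then through the sterol arm, which joins these units to squalene and closes and trims the rings. When sterols in the endoplasmic reticulum run low, SCAP escorts SREBP2 to the Golgi, where proteases release the part that enters the nucleus and raises transcription of nearly every enzyme of the route and of Srebf2 itself. When sterols are plentiful, INSIG proteins hold SCAP back. In the developing brain most cholesterol is made locally, mainly by astrocytes and by oligodendrocytes that are building myelin, while microglia take up and export much of what they handle.

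Among the 7 genes, the mevalonate arm is represented by Hmgcs1, which makes HMG-CoA, and Idi1, which interconverts the isoprenoid building blocks. Fdft1 (squalene synthase), Sqle (squalene epoxidase, a rate-limiting step) and Cyp51 (lanosterol demethylase) belong to the sterol arm. Insig1 encodes a sterol-regulated brake on SCAP, and Srebf2 encodes SREBP2. On GRCm39 in the GENCODE annotation, Hmgcs1 lies on chromosome 13 from 120151915 to 120170470, Idi1 on chromosome 13 from 8935537 to 8942487, Fdft1 on chromosome 14 from 63382189 to 63417027, and Sqle on chromosome 15 from 59186869 to 59203043. Cyp51 lies on chromosome 5 from 4123416 to 4154751, Insig1 on chromosome 5 from 28276315 to 28283668, and Srebf2 on chromosome 15 from 82031382 to 82093201. Idi1 has 5 processed pseudogenes named after it in the annotation with which it may share reads, so its level is uncertain to that extent. Shared reads were not measured, and copies of the other genes under unrelated names were not sought.

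Promoter sequence is shown because the 7 genes have a regulator in common. RefSeq windows on GRCm38.p6 were matched for 5 of the 7 genes, all but Sqle and Fdft1. The windows of the gene with a sterol regulatory element by the letters searched, Hmgcs1, and of both SREBP-pathway controllers, Insig1 and Srebf2, are given on the strand of the gene and end before the first annotated transcript start. The Hmgcs1 window holds 250 bases, that of Insig1 155 (the 95 nearest the start are left out) and that of Srebf2 162 (88 left out). For Srebf2, 3 of 4 GC boxes lie in the bases left out. Capitals mark 3 motifs on either strand, namely the sterol regulatory element TCACNCCAC, the box named CCAAT and the GC box, GGGCGG. Matches on the other strand appear as the reverse complement. The motifs share no bases in these windows.
Hmgcs1, chr13:119690101-119690350: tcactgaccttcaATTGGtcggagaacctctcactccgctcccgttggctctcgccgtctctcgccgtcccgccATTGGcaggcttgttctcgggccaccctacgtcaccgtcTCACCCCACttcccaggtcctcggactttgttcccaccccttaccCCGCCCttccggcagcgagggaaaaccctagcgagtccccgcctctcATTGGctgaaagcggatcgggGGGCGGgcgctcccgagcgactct
Insig1, chr5:28071162-28071316: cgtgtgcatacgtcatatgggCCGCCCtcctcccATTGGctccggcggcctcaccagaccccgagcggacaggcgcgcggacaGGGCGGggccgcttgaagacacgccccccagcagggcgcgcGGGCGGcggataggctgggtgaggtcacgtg
Srebf2, chr15:82147019-82147180: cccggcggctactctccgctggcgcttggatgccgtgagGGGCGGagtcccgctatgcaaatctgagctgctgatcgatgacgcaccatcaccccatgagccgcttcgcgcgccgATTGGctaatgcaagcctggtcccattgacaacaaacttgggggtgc

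In the 250 bases upstream of the annotated start, TCACNCCAC was found in 1 of the 5 genes, Hmgcs1, where the letters TCACCCCAC stand from 137 to 129 bases upstream. TCACNCCAC was found in 1.05% of 32851 mouse promoters of that length. The CCAAT box was found in 5 of 5 genes and in 33.85% of all promoters, and the GC box in 5 of 5 genes and in 32.74% of all promoters. These are matches of letters in a window and say nothing of binding.

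The libraries of the P7 table held 70191541 to 83469037 counts each and those of P14 held 29751486 to 46404071 counts. At the depth of each animal, 3 counts equal 0.0339 to 0.096 CPM (counts scaled to a common library size, with TMM factors), and the lowest level of any of the 7 genes was 18.0 CPM, so counting error is small beside the spread between animals. The labels name the cell type as monocytes (CD11b+). The summed level of 9 microglia markers such as P2ry12 and Tmem119 was 13000 to 29800 CPM in 18 animals and 1330 to 2030 CPM in the P6H63 controls, while 8 neutrophil and monocyte markers summed to 14.8 to 358 CPM. Summed markers of astrocytes, oligodendrocytes, endothelium and choroid plexus were at least 1460, 281, 621 and 1270 CPM in every animal. In bulk samples, a smaller number of cells of a type cannot be told apart from less RNA per cell.

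Compared per kb of exonic length, Hmgcs1 had the highest level of the 7 genes in every animal, with 20.4 to 68.1 CPM per kb (median 35.2, 20 animals). Idi1 (median 12.8), Srebf2 (10.7) and Insig1 (10.6) followed and did not differ beyond their spread, with ranges of 6.68 to 21.5, 7.98 to 25.9 and 7.9 to 15.3 CPM per kb. Cyp51 (median 8.88) was below Insig1 in 15 of 20 animals. Fdft1 (median 5.89) was below Cyp51 in 20 of 20, and Sqle (median 5.2) was below Fdft1 in 18 of 20, although the ranges of neighbours overlapped.

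**Figure D1:**
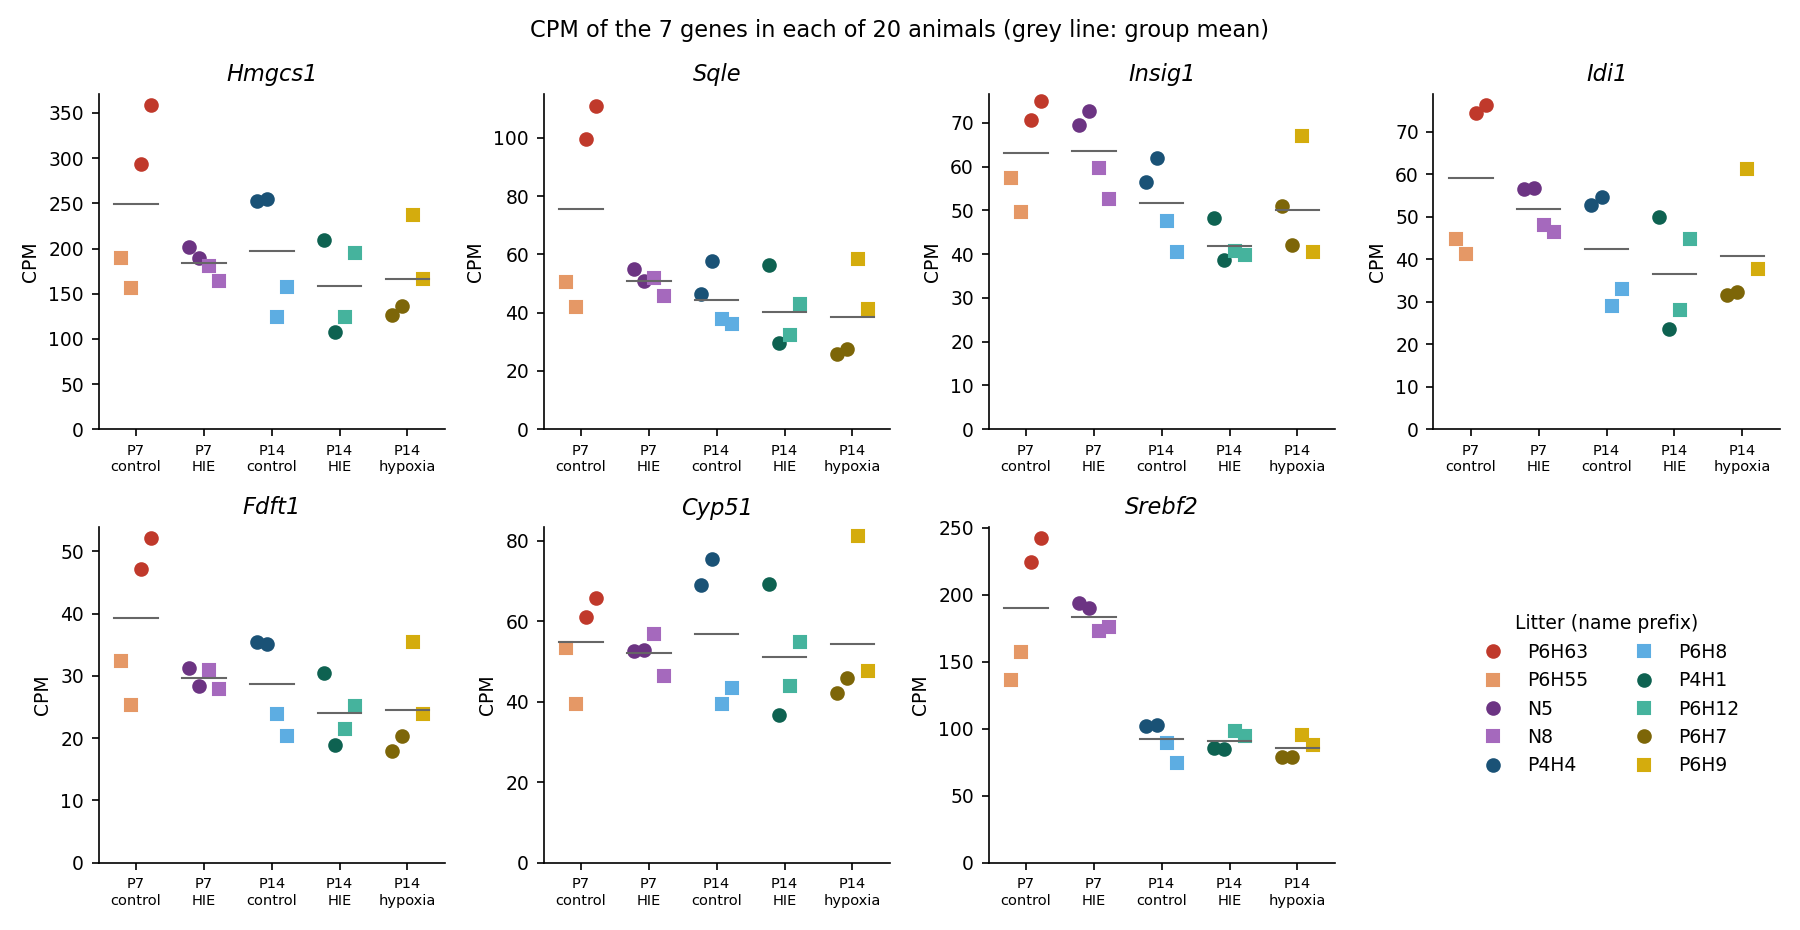
CPM of each of the 7 genes (y axis, from 0) in the 20 animals by group (x axis), with 1 point per animal, colour and shape for its litter and a grey line for the group mean. The 2 P6H63 controls are the highest animals on P7 for every gene but Insig1, and on P14 the P4H4 pair and 1 animal each of P4H1 and P6H9 stand high for most genes.

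The first comparison set P7 HIE pups against P7 controls, the day after the second hit. None of the 7 genes passed an adjusted p-value of 0.05, and all 7 log2 fold changes had opposite signs against the 2 control litters. Hmgcs1 was 202 and 190 CPM in the N5 pups, 181 and 164 CPM in the N8 pups, 190 and 156 CPM in the P6H55 controls, and 294 and 359 CPM in the P6H63 controls. The HIE pups thus overlapped with P6H55 and lay below P6H63. Hmgcs1 averaged 184 ± 16.2 CPM (SD, n = 4) after HIE, while the controls averaged 250 ± 93.3 CPM (SD, n = 4). Its log2 fold change was -0.45 (95% interval -1.02 to 0.13, edgeR quasi-likelihood test, adjusted p = 0.258).

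Sqle had the largest difference of the 7. It measured 55 and 50.8 CPM in N5, 51.9 and 45.8 CPM in N8, 50.4 and 41.8 CPM in P6H55, and 99.8 and 111 CPM in P6H63. The P6H63 controls were above all other P7 animals, which overlapped with each other. The log2 fold change of Sqle was -0.58 (95% interval -1.28 to 0.12, edgeR adjusted p = 0.234). Srebf2 measured 194 and 190 CPM in N5, 173 and 176 CPM in N8, 136 and 157 CPM in P6H55, and 224 and 242 CPM in P6H63. Every HIE pup thus lay above both P6H55 controls and below both P6H63 controls. The log2 fold change of Srebf2 was -0.06 (95% interval -0.48 to 0.36, edgeR adjusted p = 0.843).

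For the other 4 genes the P7 log2 fold changes were -0.20 for Idi1, -0.42 for Fdft1, -0.08 for Cyp51 and 0.00 for Insig1, with edgeR adjusted p-values of 0.547, 0.231, 0.733 and 0.998. HIE and control pups overlapped for all 7 genes, while 17.1% of all tested genes did not overlap. The number called was 0 of 7 with edgeR, where 0.0666% of 22517 genes were called, and 0 of 7 with DESeq2, where 13.4% were called. At an unadjusted edgeR p under 0.05 stood 0 of the 7, beside 27.3% of all genes. The median log2 fold change of the 7 was -0.20, beside -0.08 for all genes tested.

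Against the P6H55 controls alone, all 7 genes had a positive log2 fold change in HIE pups, from 0.03 for Fdft1 to 0.31 for Srebf2, and 0 of 7 passed edgeR's test (0.112% of 23274 genes were called). At an unadjusted p under 0.05 stood 2 of the 7, beside 16.5% of all genes. DESeq2 called 1 of the 7 there, Srebf2 (adjusted p = 0.0415), beside 4.2% of all genes. Against the P6H63 controls alone, 6 of 7 genes were lower in HIE pups at an edgeR adjusted p-value under 0.05, all but Insig1, in a comparison that called 58.5% of 23780 genes and 30.8% of them as lower. Sqle fell by 1.02 on the log2 scale (SE 0.0816, edgeR adjusted p = 3.9e-05), Hmgcs1 by 0.79 (adjusted p = 0.000479) and Fdft1 by 0.72 (adjusted p = 0.000166). Each of these fits used 2 controls from 1 litter, so they compare litters as well as treatments.

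**Figure D2:**
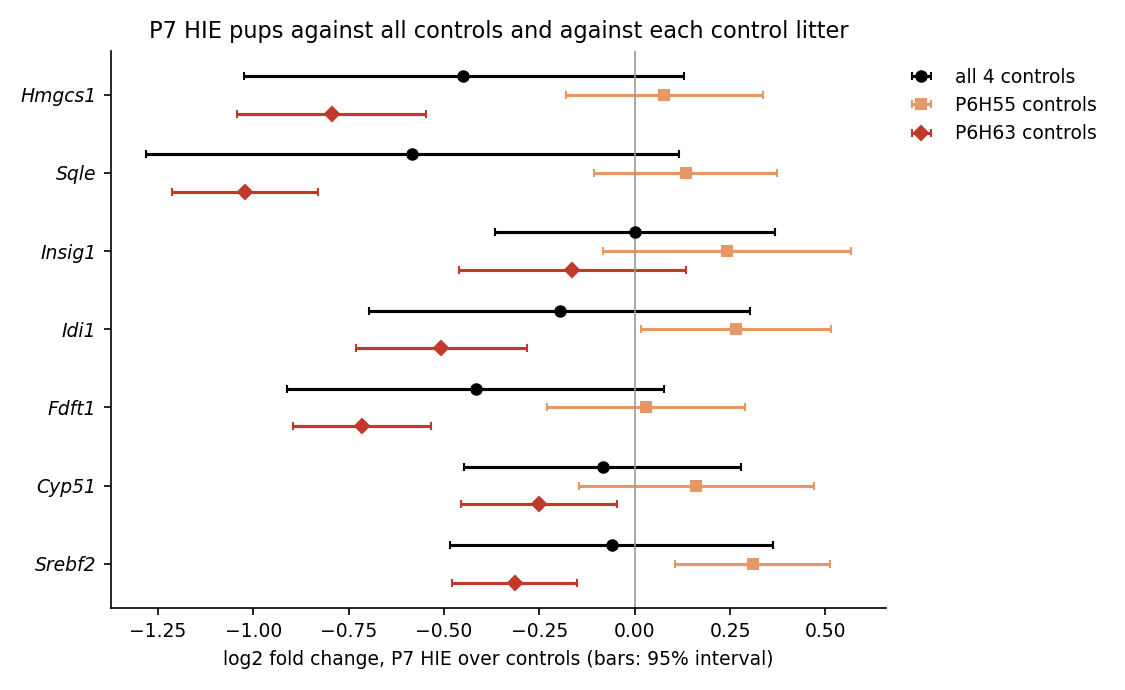
Log2 fold change of P7 HIE pups over controls (x axis) for the 7 genes (y axis) with 95% intervals from edgeR, against all 4 controls (black circles), the 2 P6H55 controls (orange squares) and the 2 P6H63 controls (red diamonds). All 7 points are positive against P6H55 and all 7 negative against P6H63.

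The 2 control litters also differed in their cell markers. The summed microglia markers were 1330 to 2030 CPM in P6H63, 13000 to 14700 CPM in P6H55 and 16600 to 19000 CPM in the HIE pups. The 10 astrocyte markers summed to 4680 to 5820 CPM in P6H63, 1660 to 2350 CPM in P6H55 and 1540 to 2020 CPM in HIE pups. The 8 choroid plexus markers summed to 3830 to 9880 CPM, 4220 to 4750 CPM and 1340 to 2410 CPM in the same order, and no marker of these 3 lists was under 3 counts in any pup. With the mean of the microglia markers as a covariate, the log2 fold changes of all 7 genes on P7 were positive, from 0.12 for Fdft1 to 0.38 for Srebf2 (edgeR adjusted p = 0.671 and 0.226), and 0 of 7 were called. That mean was 10.15 to 10.48 in HIE pups and 6.64 to 9.95 in controls, without overlap. This fit thus cannot separate treatment from microglia content.

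On P14 the 7 genes were compared between HIE animals and controls. All 7 log2 fold changes were negative and 0 of 7 passed (1 at an unadjusted p under 0.05, beside 9.87% of all genes), where edgeR called 0.00478% of 20935 genes and DESeq2, with 0 of the 7, called 2.34%. Hmgcs1 measured 253 and 255 CPM in the P4H4 controls, 124 and 157 CPM in the P6H8 controls, 209 and 108 CPM in the P4H1 HIE animals, and 124 and 195 CPM in the P6H12 HIE animals. The largest and the smallest values within each treatment thus differed by more than the group means, 197 ± 67.2 CPM (SD, n = 4) in controls and 159 ± 50.5 CPM (SD, n = 4) in HIE animals. The log2 fold change of Hmgcs1 was -0.33 (95% interval -0.96 to 0.30, edgeR adjusted p = 0.788).

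Insig1 was the gene of the 7 with the smallest unadjusted p-value on P14. It measured 56.5 and 61.9 CPM in P4H4, 47.6 and 40.5 CPM in P6H8, 48.3 and 38.6 CPM in P4H1, and 40.7 and 39.9 CPM in P6H12. The P4H4 controls stood above all 4 HIE animals and the P6H8 controls lay within their range. The log2 fold change of Insig1 was -0.32 (95% interval -0.64 to -0.01, edgeR adjusted p = 0.488). For the other 5 genes the log2 fold changes were -0.16 for Sqle, -0.23 for Idi1, -0.28 for Fdft1, -0.17 for Cyp51 and -0.05 for Srebf2, with edgeR adjusted p-values of 0.754 to 0.944.

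Within the name prefixes the P14 difference between HIE animals and controls took opposite signs for 6 of the 7 genes. Among P4H animals, the log2 ratio of the means of HIE over control was negative for 7 of 7 genes, from -0.68 for Hmgcs1 to -0.27 for Srebf2. Among P6H animals it was positive for 6 of 7 genes, up to 0.25 for Cyp51, and -0.13 for Insig1. Cyp51 measured 44.0 and 54.8 CPM in P6H12 and 39.5 and 43.5 CPM in P6H8. Each of these contrasts sets 1 litter against 1 litter, and the difference between prefixes was not tested. With the prefix as a covariate, the log2 fold changes were between -0.31 and -0.04 and 0 of 7 genes were called.

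In the P14 hypoxia animals the 7 genes overlapped with the controls, while 5.21% of all tested genes did not overlap. Hmgcs1 measured 126 and 136 CPM in P6H7, and 237 and 166 CPM in P6H9, a group mean of 166 ± 50.1 CPM (SD, n = 4). Cyp51 measured 42.3 and 46.0 CPM in P6H7, and 81.2 and 47.7 CPM in P6H9, so that 1 animal stood far above the other 3. All 7 log2 fold changes of hypoxia over control were negative, from -0.27 for Hmgcs1 to -0.07 for Insig1. Of the 7, 0 were called by edgeR, beside 0.00955% of 20953 genes. At an unadjusted p under 0.05 stood 0 of 7, beside 9.53% of all genes. Among P6H animals only, which leaves out the P4H4 controls, all 7 were positive, from 0.04 for Sqle and Srebf2 to 0.38 for Idi1 (edgeR adjusted p = 0.818 for Idi1).

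Between HIE and hypoxia animals on P14, the log2 fold changes of the 7 genes were -0.28 to 0.07. Of the 7, 0 were called by edgeR, beside 0.00955% of 20951 genes. At an unadjusted p under 0.05 stood 0 of 7, beside 4.52% of all genes. These P14 comparisons share animals, so they are not independent of each other. The HIE effect on P14 minus that on P7 was -0.32 to 0.43 on the log2 scale, with 0 of 7 called beside 0.00405% of 24694 genes by edgeR. Here 0 of 7 stood at an unadjusted p under 0.05, beside 13.9% of all genes. The interval for Hmgcs1, -0.74 to 0.99, and for Sqle, -0.42 to 1.28, were wider than the differences themselves.

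On P14 the same animals stood high or low for most of the 7 genes. The highest 4 of 12 animals held the controls P4H4-7F and P4H4-8M and the hypoxia animal P6H9-14M for 7 of 7 genes, and the HIE animal P4H1-1M for 5 of 7. The lowest 4 held the HIE animal P4H1-6F for 7 of 7 genes and the hypoxia animal P6H7-16M for 6 of 7. Thus animals of all 3 treatments stood at the top. The P4H1 littermates stood at opposite ends for most of the genes, while the P4H4 littermates both stood at the top. Over the 12 P14 animals, Pearson's r of log2 CPM between pairs of the 7 genes had a median of 0.78 (0.50 to 0.98 over 21 pairs), and over the 8 P7 animals a median of 0.83 (0.64 to 0.99). These are descriptions, since the points share library, scaling and cell content.

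Littermates that had the same treatment differed most in P4H1 and P6H9. Sqle was 56.4 CPM in P4H1-1M and 29.6 CPM in P4H1-6F, and Idi1 was 49.9 and 23.7 CPM. Srebf2 was nearly level between them, with 85.7 and 84.6 CPM. The median absolute log2 difference over the 7 genes was 0.92 between the P4H1 littermates and 0.57 between the P6H9 littermates, all 7 genes in the same direction in both, beside 0.31 and 0.28 over all genes. It was 0.32 in P6H12, 0.23 in P6H8, 0.11 in P6H7 and 0.05 in P4H4, beside 0.23 to 0.30 over all genes.

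Repeat libraries of 1 animal, scaled here over all libraries, differed less. For P4H1-6F, Hmgcs1 was 102 and 108 CPM in the 2 libraries and Sqle was 28.4 and 29.6 CPM, with a median absolute log2 difference of 0.08 over the 7 genes. For P6H12-11M, Hmgcs1 was 123 and 121 CPM, and the median difference was 0.06. Over all genes it was 0.13 in both pairs.

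**Figure D3:**
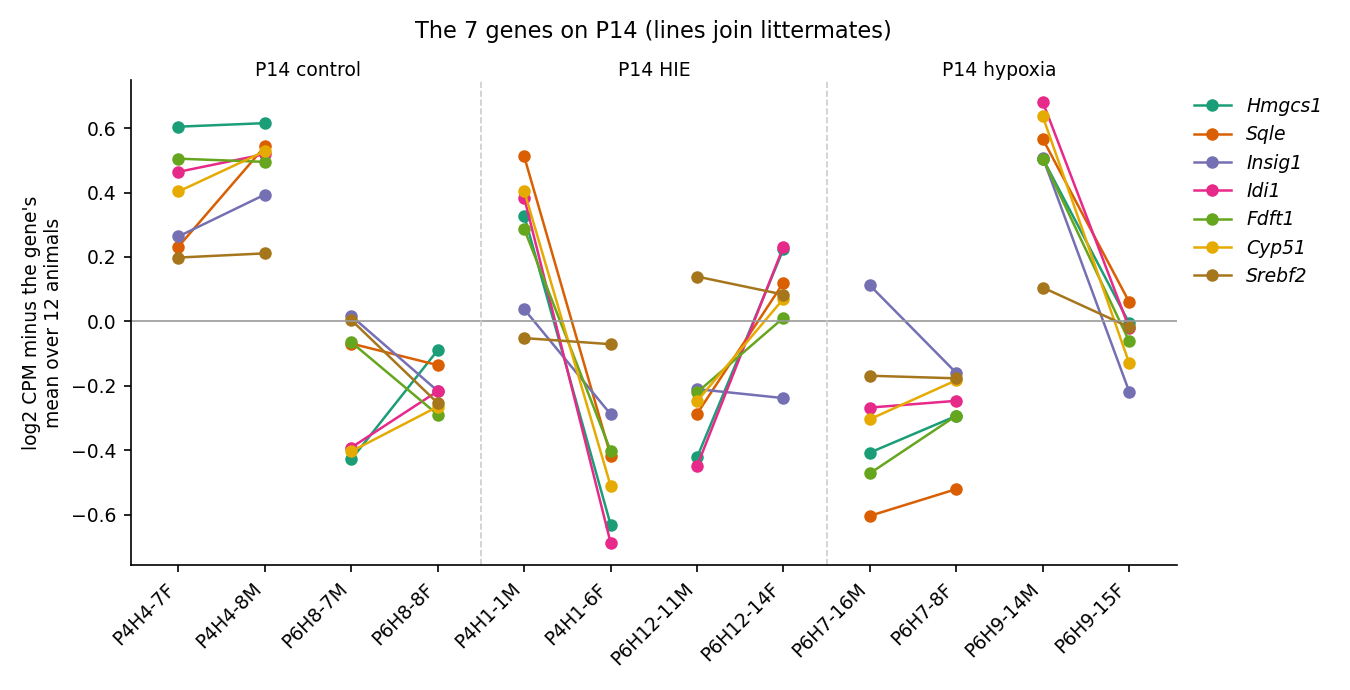
Log2 CPM of each of the 7 genes minus that gene's mean over the 12 P14 animals (y axis) in each animal (x axis), with lines joining littermates and dashed lines between the 3 treatments. The 7 lines run together downwards from P4H1-1M to P4H1-6F and from P6H9-14M to P6H9-15F.

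In the P14 HIE comparison the oligodendrocyte markers had negative log2 fold changes in 10 of 10 genes (median -0.70), the astrocyte markers in 9 of 10 (median -0.41) and the microglia markers in 0 of 9 (median 0.24), and edgeR called 0 of them. Such markers were also set beside the 7 genes within litters. The mean log2 CPM of the 7 genes was 6.03 in P4H1-1M and 5.33 in P4H1-6F, while the mean of 10 oligodendrocyte markers was 6.68 and 5.36, that of 10 astrocyte markers was 7.23 and 6.41, and that of 9 microglia markers was 10.93 and 11.04. In P6H9 the animal with the higher mean of the 7 genes was higher by 0.55, with differences of 0.31 in oligodendrocyte, -0.09 in astrocyte and 0.27 in microglia markers. In P6H12 the differences were 0.31 for the 7 genes, 0.81 for oligodendrocyte, 0.40 for astrocyte and -0.33 for microglia markers.

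Over the 6 P14 litters, the animal with the higher mean of the 7 genes had the higher oligodendrocyte mean in 4, the higher neuron mean in 5, the higher choroid plexus mean in 5, the higher astrocyte mean in 3 and the higher microglia mean in 1. In P6H8 and P6H7, where the 7 genes differed by 0.02 and 0.03, the oligodendrocyte means differed by -0.64 and -0.41. Summed oligodendrocyte markers were 1480 to 5400 CPM in P14 controls, 906 to 2960 CPM in HIE animals and 1260 to 3730 CPM in hypoxia animals. Summed astrocyte markers were 1460 to 3680 CPM, 2370 to 3370 CPM and 1570 to 2010 CPM, and none of either list was under 3 counts. The part of these cells in the level of the 7 genes was not tested.

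**Figure D4:**
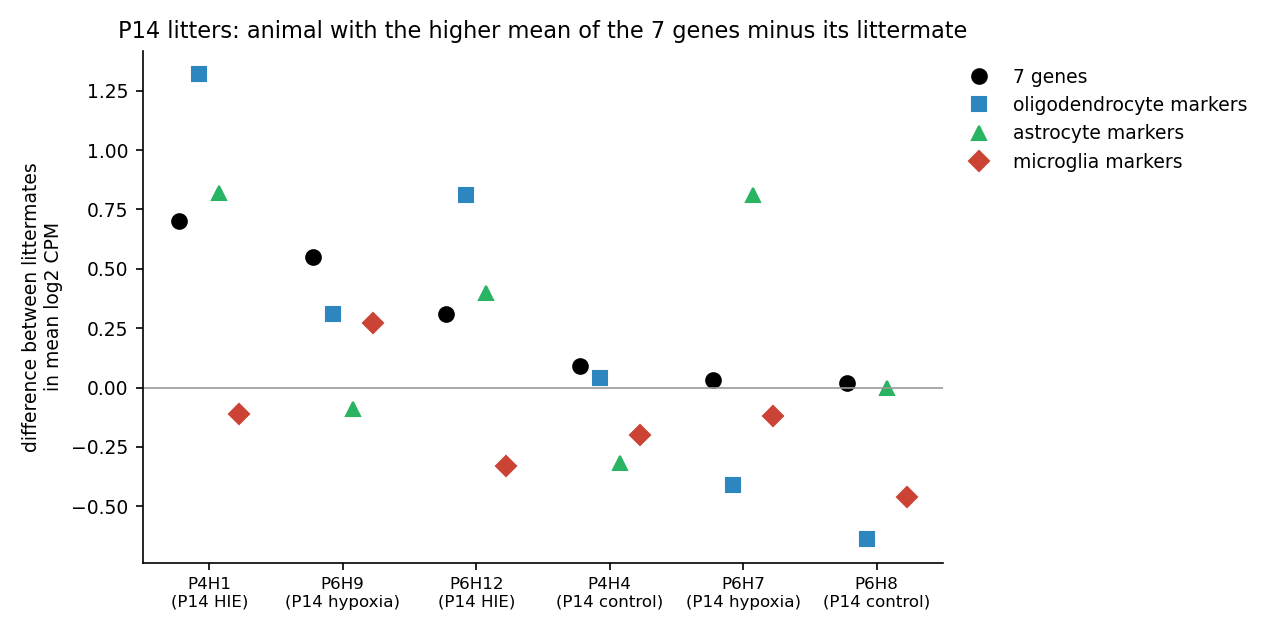
Difference between the 2 littermates of each P14 litter (x axis) in mean log2 CPM (y axis), taken as the animal with the higher mean of the 7 genes minus the other, for the 7 genes (black) and for oligodendrocyte, astrocyte and microglia markers. The oligodendrocyte difference is positive in the 4 litters with the largest difference in the 7 genes and negative in the other 2.

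The genes with the profile most like the mean of the 7 over the 12 P14 animals were sought among 21671 genes. By Pearson's r of log2 CPM they included Fdps (0.958), Cyp2j6 (0.953), Msmo1 (0.951), Sc5d (0.948), Capn5 (0.947), Eml1 (0.939) and Ado (0.935). Fdps, Msmo1 and Sc5d are enzymes of cholesterol synthesis. Of the nearest 100 genes, 9 were on the pathway lists, 7 were among the 10 oligodendrocyte markers (among them Cnp, Mog and Mag), and 0 were among the astrocyte or the microglia markers. Over the 8 P7 animals the nearest were Wdr49 (0.994), Meis2 (0.992), Tcf4 (0.991), Rtn1 (0.990), Cilk1 (0.990), Ift88 (0.990), Ctif (0.990) and Ribc2 (0.988), among them genes of cilia such as Ift88. Of the nearest 100 on P7, 4 were on the pathway lists and 0 were among the oligodendrocyte, astrocyte or microglia markers. On that day 2 of the 8 points are the P6H63 controls, with a mean of 6.64 and 6.78 for the 7 genes beside 5.85 to 6.24 in the other 6 pups.

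Name prefix was compared among the 8 P14 control and HIE animals, 4 with each prefix, with treatment as a covariate, because each treatment has 1 litter of each prefix. All 7 genes had a positive log2 fold change in P4H over P6H animals, from 0.07 for Srebf2 to 0.45 for Cyp51 (95% interval -0.06 to 0.95, edgeR adjusted p = 0.234), with a median of 0.37 beside 0.01 for all genes. The number called was 0 of 7 (1 at an unadjusted p under 0.05, Insig1, beside 26.7% of all genes), where edgeR called 0.65% of 21535 genes, and 0 of 7 with DESeq2, which called 12.8%. Without the filter on low counts, 4 of 7 passed, namely Hmgcs1, Sqle, Idi1 and Cyp51, where 8.98% of 36224 genes were called. P4H1-6F was the lowest P14 animal for Hmgcs1 and Idi1 although it carries the P4H prefix. In the same comparison 10 of 10 astrocyte markers (median 0.56) and 9 of 10 oligodendrocyte markers (0.41) were positive. So were 10 of 10 endothelial (0.51) and 9 of 9 microglia markers (0.27). Neuronal markers were positive in 4 of 10 (-0.12), and neutrophil and monocyte markers in 1 of 8 (-0.24). Of these markers edgeR called 1, in endothelium. The part of these cells in the prefix difference was not tested.

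The wider route was described with 6 lists, 70 genes in all including the 7. With edgeR, 0 of the 70 were called in any of the 6 comparisons, and at an unadjusted p under 0.05 the synthesis arms, uptake and other lists together held 11 positive and 11 negative genes on P7, where 27.3% of all genes stood, and 5 and 6 on P14 for HIE, where 9.87% did. On P7, the mevalonate arm was negative in 9 of 9 genes (median log2 fold change -0.19) and the sterol arm in 10 of 12 (median -0.22), beside a median of -0.08 for all genes. Against the P6H55 controls alone the mevalonate arm was positive in 7 of 9 genes (median 0.11) and the sterol arm in 10 of 12 (median 0.13).

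Of the uptake and transport genes 11 of 16 had a positive log2 fold change on P7 and of the efflux and storage genes 8 of 11, with medians of 0.32 and 0.56, and edgeR called 0 of them. Against the P6H55 controls alone 11 of 16 and 8 of 11 were positive, with smaller medians of 0.17 and 0.12 beside -0.02 for all genes. There too edgeR called 0 of them. Lrp1, a receptor for lipoproteins and many other ligands, measured 2570 to 3070 CPM in HIE pups and 826 to 2940 CPM in controls, a log2 fold change of 0.62 (edgeR adjusted p = 0.329) that was 1.66 against P6H63 and 0.04 against P6H55. Apoe, the main lipid carrier of the brain, measured 3100 to 4350 CPM in HIE pups and 1140 to 4030 CPM in controls, and its log2 fold change of 0.60 was likewise 1.65 against P6H63 and 0.03 against P6H55. For Npc2, which moves cholesterol out of lysosomes, the log2 fold change was 0.85 (edgeR adjusted p = 0.213), and for Abca1, an exporter of cholesterol, 0.56 (0.294). The 12 genes of fatty acid synthesis, which share SREBP control, were negative in 9, with -0.40 for Scd2 and -0.39 for Fasn. Against the P6H55 controls alone 6 of the 12 were positive and 6 negative (median 0.01).

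DESeq2 called 10 of the 70 genes on P7, a share near the 13.4% of all genes it called there. Those higher in HIE pups included Gramd1a, Soat1, Ebp and Acly, and Vldlr, Srebf1, Scd1, Me1 and Fads2 were lower. These calls used both control litters. Fads2, for example, was 128 to 156 CPM in HIE pups and 133 to 495 CPM in controls. Against the P6H55 controls alone, DESeq2 called 6 of the 70 genes as higher and 1 as lower, beside 4.2% of all genes, and edgeR called 0. DESeq2 called 0 of the 12 genes of fatty acid synthesis there, Acly, Scd1, Me1 and Fads2 among them. On P14 it called 2 of the 70, beside 2.34% of all genes, namely Scarb1, a receptor for HDL, which was higher in HIE animals with 41.8 to 57.5 CPM beside 25.5 to 38.3 CPM in controls, and Cyp46a1, the cholesterol hydroxylase of neurons, which was lower with 3.21 to 4.87 CPM beside 5.52 to 7.27 CPM. The edgeR adjusted p-values were 0.262 for Scarb1 and 0.238 for Cyp46a1. Neuronal markers had negative log2 fold changes in 10 of 10 genes in the same comparison (median -0.93), and their part in the Cyp46a1 difference was not tested.

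In the P14 HIE comparison, the mevalonate arm was negative in 7 of 9 genes (median -0.20) and the sterol arm in 9 of 12 (median -0.17), beside 0.01 for all genes. Mbtps1, a protease that cleaves SREBPs, had a log2 fold change of 0.30. It measured 144 to 163 CPM in HIE animals and 103 to 134 CPM in controls without overlap (5.5% of all genes did not overlap), and its edgeR adjusted p-value was 0.336. In the hypoxia comparison, 8 of 9 and 9 of 12 genes of the 2 arms were negative, with medians of -0.08 in both. Between prefixes, 9 of 9 and 12 of 12 genes of the arms and 12 of 12 genes of fatty acid synthesis were positive in P4H, with medians of 0.30, 0.28 and 0.28. DESeq2 called 6 of the 70 there, Dhcr7, Srebf1, Scarb1, Lipa, Scd1 and Elovl5, all higher in P4H, beside 12.8% of all genes, and the smallest edgeR adjusted p-value among these was 0.0504 for Dhcr7.

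**Figure D5:**
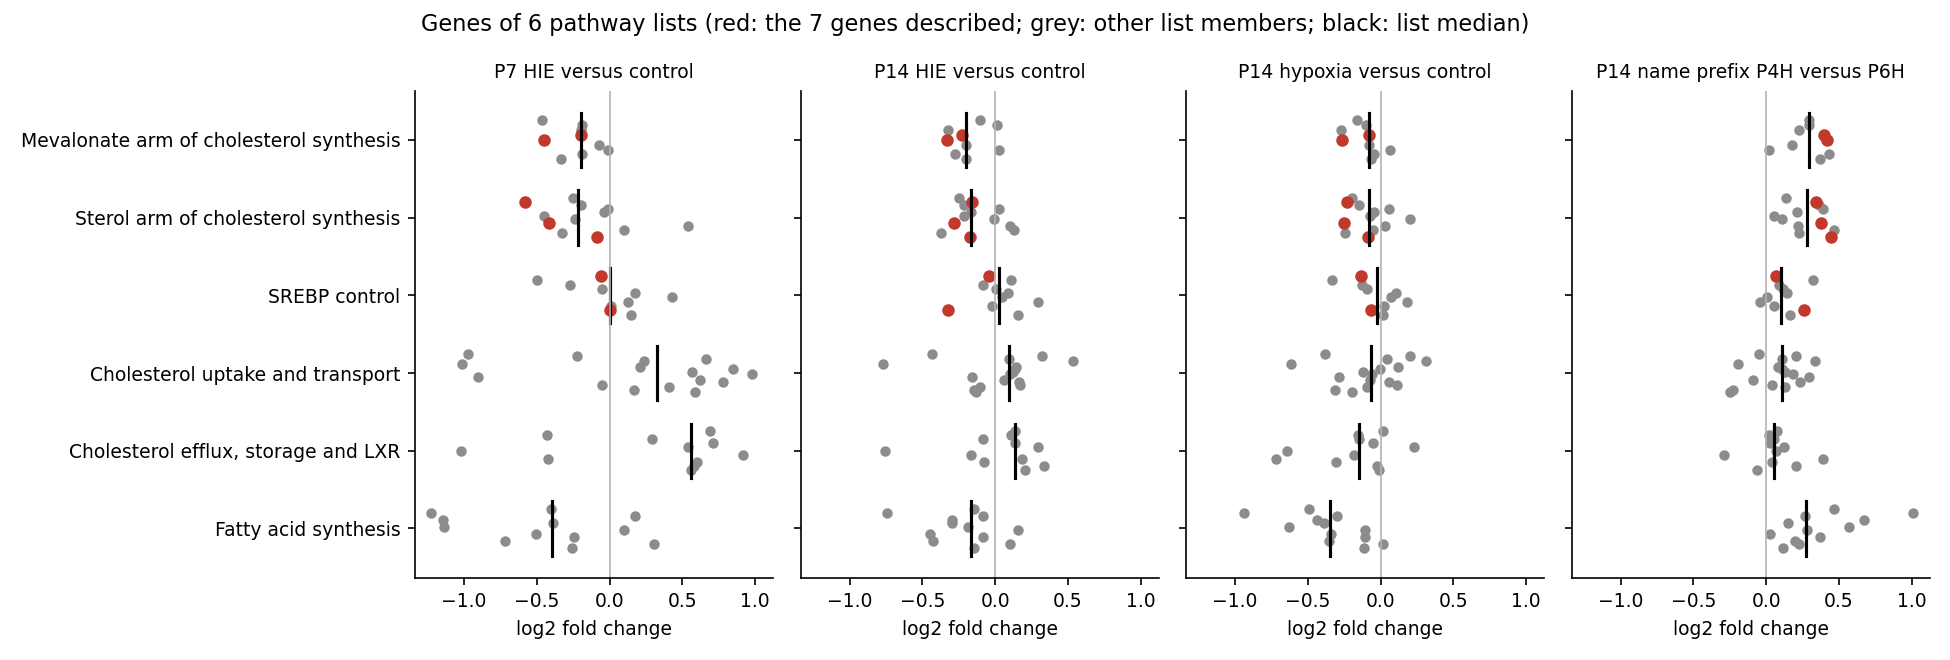
Log2 fold change (x axis) of each gene of the 6 pathway lists (y axis) in 4 comparisons (panels), with the 7 genes in red, other list members in grey and the list median as a black bar. The bars of both synthesis arms are negative for HIE on P7 and P14 and for hypoxia, and positive for P4H over P6H.

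Levels on P7 and P14 were set side by side without a test. Srebf2 was 136 to 242 CPM on P7 (median 183, 8 animals) and 74.5 to 103 CPM on P14 (median 88.4, 12 animals), and the days did not overlap. The share of all genes without overlap between days is not given here, so this cannot be called particular to Srebf2. Sqle was 41.8 to 111 CPM and 26.0 to 58.6 CPM, Idi1 41.2 to 76.4 CPM and 23.7 to 61.3 CPM, and Hmgcs1 156 to 359 CPM and 108 to 255 CPM, all with overlap. Cyp51 was 39.4 to 65.7 CPM on P7 and 36.6 to 81.2 CPM on P14.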

How the data were processed

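CD11b+ cells were enriched by the authors with antibody-coated magnetic beads, and stranded total RNA libraries were made. Per the submitters' processing notes, FastQC, STAR and RSEM were used with GRCm39. The deposited values are RSEM's expected counts per gene, unscaled, of which 84.2% to 88.0% per library are whole numbers. Reads that match several genes are divided between them by estimation. Here the expected counts were rounded, and the 2 libraries of each of 2 animals were summed. Of 56691 genes, 56017 matched a GENCODE symbol. Fcrls, 1 of 10 microglia markers, did not.

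Each comparison was fitted with edgeR 4.0.16 (R 4.3.3) by the quasi-likelihood test on the animals it concerns, after edgeR's filter (minimum count 10) and TMM, with Benjamini-Hochberg adjustment over all tested genes and a threshold of 0.05. DESeq2 1.42.0 was run beside it. Intervals of 95% come from the edgeR fit. Log2 CPM used a prior count of 2 and TMM over all 20 animals, and CPM per kb used the union of exons. P-values measure the spread between animals, of which littermates are not independent. The floor of 3 counts concerns counting error only, while the intervals include the estimated spread between animals. The scripts were tested on simulated counts. Alternatives were other normalizations, no filter, DESeq2, the likelihood ratio test, covariates (sex, microglia markers, prefix), subsets of litters and leaving out each animal.

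The named genes were the 7, from each pathway list those past the threshold (up to 3 per direction) or else the 2 with the highest mean CPM, and the 8 genes most like the mean of the 7 on each day. Some genes under this rule are not reported here. Other genes were named after their values were seen. The members and lists were chosen with earlier results of these data known. Promoter windows came from RefSeq (GRCm38.p6) and gene positions from GENCODE (GRCm39).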

Additional observations from a re-analysis of the deposited data

Results flagged for a closer look

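Dixon's criterion was applied to the CPM of the 7 genes in the 5 groups of 4 animals, 35 groups in all, of which chance marks about 1 in 20. It marked 1. Cyp51 was 81.2 CPM in the hypoxia animal P6H9-14M, beside 42.3 to 47.7 CPM in the other 3 hypoxia animals.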

How the results depend on the processing

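No paired analysis was possible because replicate numbers were given in accession order and pair no animals. Of 371 log2 fold changes of the 7 genes under other settings, 320 kept direction and side of the threshold, 41 changed direction and 10 passed it. Of the values with 1 animal left out, 332 kept both, 58 changed direction and 2 passed. The cause of these changes was not tested. Genes called on P7 (15) became 3024 with DESeq2, 1449 with the likelihood ratio test, 26 with the P6H55 controls only and 13904 with the P6H63 controls only (6 of the 7 genes), and 10 to 5588 with 1 animal left out (0 to 1 of the 7), with 5588 without P6H55-7 and at most 14 without any other. For HIE against control on P14 (1) they became 490, 236, 2 without TMM, 3 without the filter, 2 with the microglia score, 2 with the prefix and 0 with all P14 animals, and 0 to 6 with 1 animal left out (6 without P6H8-7M, 3 without P6H12-14F, 0 without P4H1-1M, P6H8-8F, P4H4-7F or P6H12-11M). For hypoxia against control (2) they became 164, 64, 1 with sex, 1 with the microglia score, 0 with all P14 animals and 0 with P6H animals only, and 1 to 7 (7 without P6H9-14M or P6H8-7M). For HIE against hypoxia (2) they became 15, 21, 5 without the filter, 1 with sex, 1 with the microglia score and 0 with all P14 animals, and 1 to 3. For the difference between the HIE effects on P14 and P7 (1) they became 673, 535, and 0 without TMM, with sex, with the microglia score or with P6H55 controls only, and 0 to 1200 (1200 without P6H55-7, 414 without P6H55-12). For the prefix (140) they became 2754, 2091, 859 without TMM, 3254 without the filter (4 of the 7), 0 with sex and 0 with the microglia score, and 0 to 2632 (0 to 1 of the 7), with 2632 without P6H8-8F and 409 without P4H1-6F. DESeq2 called 0 of the 7 in each of these 6 comparisons. With the P6H55 control P6H55-7 left out, Fdft1 passed on P7 (-0.56), and with P4H1-6F left out, Cyp51 passed for the prefix (0.68).

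Direction changed as follows (log2 fold change). On P7, Insig1 was -0.22 without TMM and -0.16 with P6H63 controls only, and Cyp51 was 0.05 with sex and with males only. With the microglia score, Hmgcs1 was 0.19, Sqle 0.28, Idi1 0.34, Fdft1 0.12, Cyp51 0.21 and Srebf2 0.38. With P6H55 controls only they were 0.08, 0.13, 0.27, 0.03, 0.16 and 0.31. For hypoxia with P6H animals only, Hmgcs1 was 0.23, Sqle 0.04, Insig1 0.16, Idi1 0.38, Fdft1 0.13, Cyp51 0.37 and Srebf2 0.04. For HIE against hypoxia with the microglia score, Hmgcs1 was 0.13, Idi1 0.02, Fdft1 0.13 and Cyp51 0.03, and with P6H animals only Sqle was -0.03. For the difference between the HIE effects on P14 and P7, Srebf2 was -0.01 with DESeq2 and with RLE factors. Without TMM, Idi1 was 0.19 and Cyp51 0.11. With the microglia score Hmgcs1 was -0.40, Sqle -0.28, Fdft1 -0.29 and Srebf2 -0.34, and with P6H55 controls only -0.41, -0.30, -0.31 and -0.36. For the prefix Srebf2 was -0.05 without TMM. With 1 animal left out, P7 values were -0.19 to 0.01 for Cyp51, -0.08 to 0.09 for Insig1 and -0.18 to 0.07 for Srebf2. For HIE on P14 Srebf2 was -0.14 to 0.02. For hypoxia, Cyp51 was -0.36 to 0.08, Idi1 -0.36 to 0.07 and Insig1 -0.25 to 0.04. For HIE against hypoxia, Cyp51 was -0.29 to 0.17, Fdft1 -0.18 to 0.20, Hmgcs1 -0.24 to 0.15, Idi1 -0.36 to 0.10 and Sqle -0.15 to 0.34. For the difference between the HIE effects on P14 and P7, Cyp51 was -0.27 to 0.07, Fdft1 -0.02 to 0.28, Hmgcs1 -0.10 to 0.27, Idi1 -0.23 to 0.12 and Srebf2 -0.11 to 0.14. For the prefix Srebf2 was -0.02 to 0.14.

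The counts of the 7 genes lay far above 3 in every animal. Each treatment held 2 litters per day. All P7 HIE pups are labelled male, so sex and treatment overlap there, and the day labels of the P7 controls differ from P7. The names of all P7 HIE pups begin with N and those of all P7 controls with P6H. On P7 the name prefix and the treatment thus cannot be told apart.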
